A study of Rattus norvegicus with 15 samples.

Results

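The genes described are the enzymes that carry glucose carbon from the step after hexokinase through glycolysis, pyruvate entry into mitochondria, the cytosol to mitochondria shuttles and the tricarboxylic acid (TCA) cycle. They were chosen by symbol from a list of 45 genes, and 43 were found among the 28914 genes of the count table (Idh3b only after ignoring letter case). Pfkfb4 and Ogdh were not analysed here. Messenger RNA with poly(A) tails had been sequenced from isolated islets of Langerhans of 15 Lewis rats, described as 4 to 5 weeks old without saying at which point, 10 weeks after surgery. The surgery was a partial pancreatectomy that took out 90% of the organ (Px, 10 rats) or a sham operation (Sham, 5 rats). The labels give an average blood glucose before sacrifice, without a unit. It lay between 416 and 464 in 3 Px rats (higher-glucose Px), between 104 and 211 in 7 Px rats (lower-glucose Px) and between 88 and 96 in the Sham rats. Px leaves a small remnant whose islets face a raised demand for insulin, and the islets of all groups hold several cell types. The mark "Inc_YES" in the titles of all 15 samples has no explanation in the labels.

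In beta cells the rate of glucose breakdown sets the rate of insulin release, so glycolysis and the mitochondria that burn its product act as the glucose sensor. Phosphofructokinase commits sugar to glycolysis and is activated by fructose 2,6-bisphosphate, which the Pfkfb enzymes make and remove. Pyruvate enters the TCA cycle through pyruvate dehydrogenase, which the Pdk kinases switch off, or through pyruvate carboxylase (Pc), which beta cells hold at a high level. The mitochondrial glycerol-3-phosphate dehydrogenase Gpd2 and the malate and aspartate enzymes carry reducing power from the cytosol into mitochondria.

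The results turn on pairs of isozymes that differed in opposite directions between Px and Sham islets, and the promoters of 2 such pairs are shown. Each is the RefSeq window of build GRCr8 from 250 bases before to 50 bases after the gene's start, 5′ to 3′ on the gene's strand, with the searched motif in capitals where 1 is present.
Pfkfb3, chr17:71944683-71944982, plus strand: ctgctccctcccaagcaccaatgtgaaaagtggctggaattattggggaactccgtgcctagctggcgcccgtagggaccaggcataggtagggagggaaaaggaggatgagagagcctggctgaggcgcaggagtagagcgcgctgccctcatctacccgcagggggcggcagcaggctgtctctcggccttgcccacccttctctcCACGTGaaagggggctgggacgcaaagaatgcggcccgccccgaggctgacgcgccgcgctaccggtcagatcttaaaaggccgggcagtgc
Pfkfb2, chr13:44726922-44727221, minus strand: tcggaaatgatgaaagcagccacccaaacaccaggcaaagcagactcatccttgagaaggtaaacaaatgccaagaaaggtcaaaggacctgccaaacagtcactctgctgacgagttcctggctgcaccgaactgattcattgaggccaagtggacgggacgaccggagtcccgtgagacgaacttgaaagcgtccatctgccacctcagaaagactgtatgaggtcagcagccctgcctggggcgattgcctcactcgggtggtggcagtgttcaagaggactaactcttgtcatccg
Eno1, chr5:166002617-166002916, plus strand: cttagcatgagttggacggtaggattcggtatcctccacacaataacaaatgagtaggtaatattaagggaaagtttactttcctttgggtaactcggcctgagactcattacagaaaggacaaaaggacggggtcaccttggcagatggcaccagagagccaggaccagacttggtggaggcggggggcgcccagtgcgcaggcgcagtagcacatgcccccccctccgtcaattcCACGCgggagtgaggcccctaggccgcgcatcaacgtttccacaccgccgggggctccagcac
Eno2, chr4:159267171-159267470, minus strand: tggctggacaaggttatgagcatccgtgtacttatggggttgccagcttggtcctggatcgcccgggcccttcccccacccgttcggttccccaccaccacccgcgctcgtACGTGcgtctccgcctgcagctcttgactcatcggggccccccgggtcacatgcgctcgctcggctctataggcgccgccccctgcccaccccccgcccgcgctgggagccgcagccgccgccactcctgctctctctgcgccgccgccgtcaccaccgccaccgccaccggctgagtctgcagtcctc
The motifs searched on both strands were ACGTG or GCGTG, the core of the hypoxia response element, and CACGTG, the palindromic E-box, which contains ACGTG on each strand. Capitals mark CACGTG in Pfkfb3, GCGTG in Eno1 (on the opposite strand, so read as CACGC) and ACGTG in Eno2, and the Pfkfb2 window holds neither motif. For Eno1, which has 2 entries in the promoter table, the first entry was used. Promoters were matched for 40 of the 43 members (not for Pgk1, Pc and Idh3a). ACGTG or GCGTG occurred in 24 of these 40 (60%) and in 41.6% of all 33469 promoters. It occurred in 5 of 10 members that were higher in Px islets, in 4 of 8 that were lower and in 15 of 22 that did not pass the test. CACGTG occurred in 3 of 40 members (7.5%), which are Pfkfb3, Pdhb and Pdk2, and in 6.42% of all promoters. These matches describe letters in a window and are not binding sites.

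Library totals were 22.3 to 33.4 M counts in higher-glucose Px, 19.1 to 31.6 M in lower-glucose Px and 12.2 to 18.4 M in Sham. The share of counts from 22 acinar marker genes was 30.3 to 39.7% in higher-glucose Px, 20.1 to 48.5% in lower-glucose Px and 1.06 to 15.1% in Sham. Beta cell markers (9 genes, including Ins1 and Ins2) held 3.16 to 4.77%, 3.7 to 9.23% and 10.9 to 24.1% of counts in the same order. Macrophage markers (13 genes) held 0.043 to 0.0726%, 0.053 to 0.447% and 0.00458 to 0.00875%. Fibroblast and stellate markers (12 genes) held 0.0863 to 0.193%, 0.206 to 0.762% and 0.0307 to 0.0776%. No marker of these lists was at 0 in every library. Against Sham, 21 of 22 acinar, 12 of 12 tested macrophage and 12 of 12 fibroblast markers were higher in Px, and 8 of 9 beta cell markers were lower (edgeR, adjusted p under 0.05). Lower-glucose Px replicate 8 stood apart with the highest macrophage share, and results that rest on it are given without it. In these bulk islets fewer cells of a type and less RNA per cell cannot be told apart. The part that these cell types have in the differences between Px and Sham below was not tested.

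The proportions of several glycolytic isozymes differed between Px and Sham islets. Pfkm and Pfkfb2, the main analysed forms of their families in Sham islets, and the neuroendocrine enolase Eno2 were lower, together with Pc and Gpd2. Pfkfb3, an inducible form, was higher, as were Pfkp, Eno1 and Pdk1 under TMM scaling, which did not pass under library totals. All 43 members passed the filter on low counts. In Px against Sham 11 members were higher and 9 lower by edgeR's quasi-likelihood test with Benjamini-Hochberg adjustment over all genes tested, and 23 did not pass. Over all 15199 genes tested, 34.5% were higher, 30.2% lower and 64.7% either, so the members' share of 46.5% lies below the background. The members' median log2 fold change was 0.16, and that of all genes was 0.02. The libraries of Px and Sham did not overlap for 9 members (37.2% of all genes): Pfkfb3, Pgk1, Pdk1 and Cs lay above, and Pfkm, Pfkfb2, Eno2, Pc and Gpd2 below.

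The split into higher and lower members depended on how libraries were scaled. Scaling factors of the TMM method, which takes most genes as unchanged, were 0.538 to 1.21 in Px and 1.24 to 1.55 in Sham. With library totals in place of TMM, 1 member was higher and 24 were lower, and the median of all genes was -0.62. With 8 endocrine granule genes (such as Chga and Cpe) as the scale, 33 were higher and 5 lower, and the median of all genes was 0.61. Under TMM 4 of these 8 genes were themselves lower in Px and none was higher. They held 0.599 to 1.08% of counts in higher-glucose Px, 0.627 to 1.2% in lower-glucose Px and 1.98 to 2.25% in Sham. This scale therefore differs between the surgery groups and is not an independent reference. Of all called genes, 53.3% were higher under TMM, 25.1% under library totals and 92.8% under the granule genes. Relative to the median of all genes the members' median changed little, at 0.14, 0.09 and 0.14 under TMM, library totals and granule genes. Pfkfb3 was called higher, and Pfkm, Pfkfb2, Eno2, Pc and Gpd2 were called lower, under all 3 scalings. These 6 calls also passed with an acinar marker score as a covariate. For Pfkfb3 the log2 fold change was then 2.46 (edgeR adjusted p = 0.048), against 3.27 without the acinar score. The acinar share of counts was higher in every Px than in every Sham library, so the acinar score also follows the surgery groups. With that score the 9 members called lower kept their calls, as did Pfkfb3 and Pfkp, and the other 9 members called higher did not pass (Pgk1, Eno1, Pdk1, Pdha1, Mpc1, Cs, Idh3b, Sucla2 and Idh1, edgeR adjusted p of 0.15 to 0.926). With a macrophage marker score as a covariate, 0 of 15199 genes passed in edgeR, where 2009 had an unadjusted p under 0.05; the score and the surgery groups largely coincide.

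**Figure D1:**
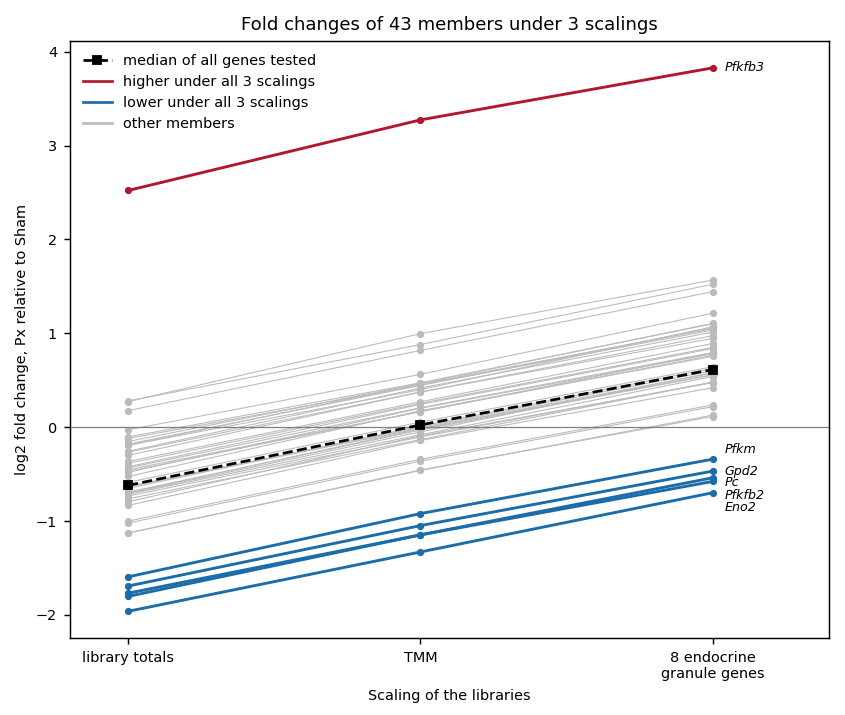
Each line is 1 of 43 members, with its log2 fold change of Px relative to Sham (y axis) under library totals, TMM or 8 endocrine granule genes as the scale of the libraries (x axis). The scaling moves all lines in parallel with the median of all genes tested (dashed, -0.62, 0.02 and 0.61), Pfkfb3 stays above 0, and Pfkm, Gpd2, Pc, Pfkfb2 and Eno2 stay below it.

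**Figure D2:**
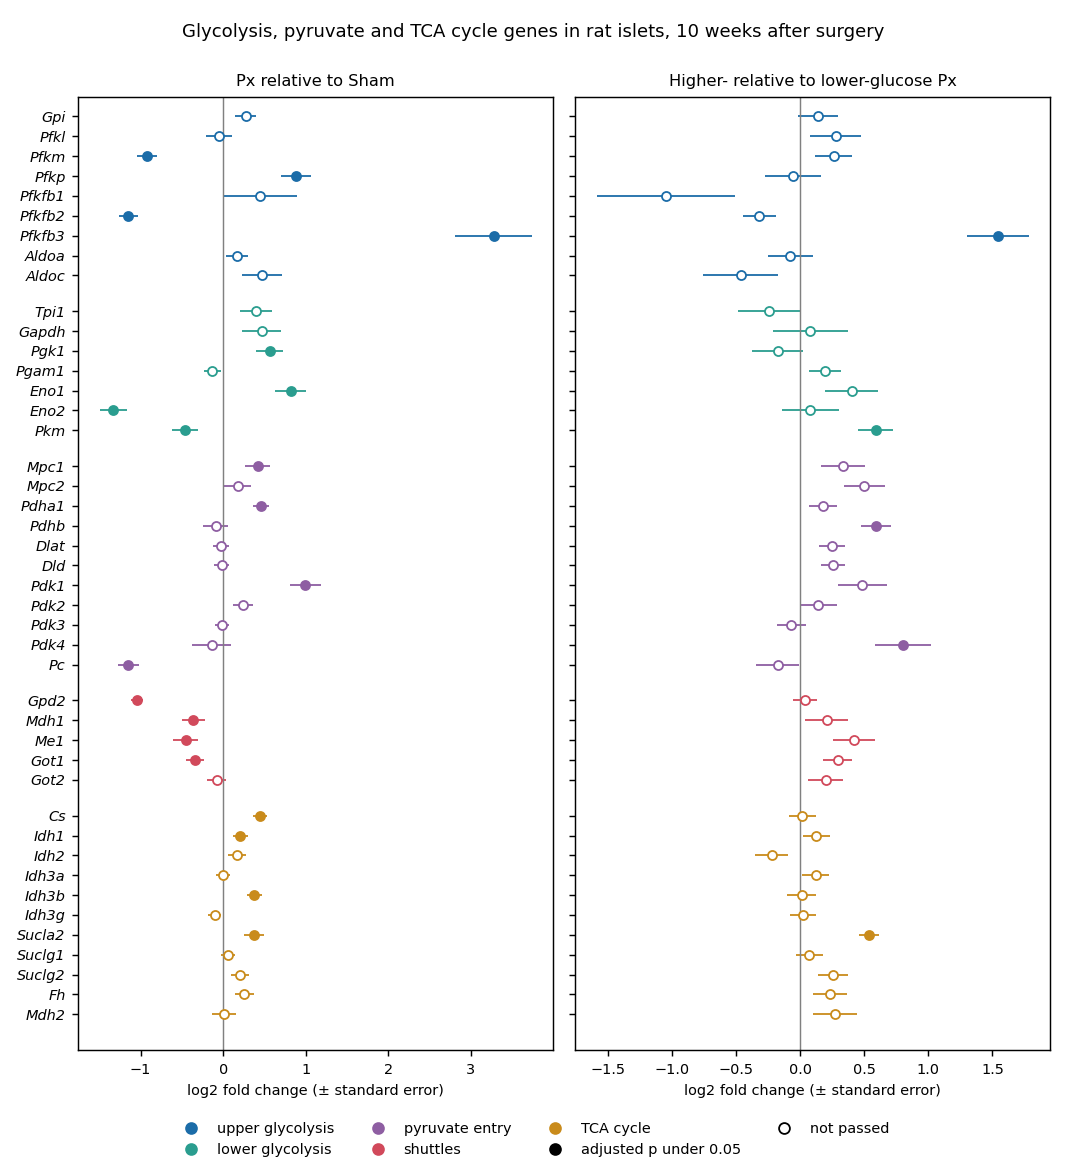
Log2 fold change with its standard error (x axis) of the 43 members (rows, coloured by role) for Px relative to Sham (left, n = 10 and 5) and for higher- relative to lower-glucose Px (right, n = 3 and 7). Filled circles have an edgeR adjusted p under 0.05. On the left the called members lie on both sides of 0, from -1.33 for Eno2 to 3.27 for Pfkfb3, and on the right all 5 called members lie above 0.

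Among the 9 upper glycolysis genes, 2 were higher in Px (Pfkfb3 and Pfkp), 2 were lower (Pfkm and Pfkfb2) and 5 did not pass. Levels are given in CPM (counts per M counts) on TMM-scaled library sizes. Pfkfb3, the inducible form that makes fructose 2,6-bisphosphate, had 8.04 CPM in the lowest, 13.5 in the median and 42.6 in the highest Px library. In Sham it had 1.85, 2.22, 1.66, 2.09 and 2.29 CPM. Every Px library lay above every Sham library, and the 3 highest were the higher-glucose rats. This gave a log2 fold change of 3.27 ± 0.46 (SE, edgeR adjusted p = 1.23e-05), and 3.25 without lower-glucose Px replicate 8.

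Pfkfb2, the form that predominates in Sham islets among the Pfkfb enzymes analysed here, went the other way. It had 83.4 CPM in the lowest, 100.6 in the median and 131 in the highest Px library, and 255, 247, 224, 205 and 238 CPM in Sham. The groups did not overlap, and the lowest Px library was replicate 8. As a log2 fold change this was -1.15 ± 0.11 (SE, edgeR adjusted p = 3.01e-07). Pfkfb1, the liver form, was at 0.528 ± 0.289 CPM in Px and 0.395 ± 0.270 CPM in Sham (SD, n = 10 and 5) and did not pass.

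Phosphofructokinase itself showed a similar exchange. Pfkm, the muscle-type subunit, had 49.7 CPM in the lowest, 77.3 in the median and 89.7 in the highest Px library, and 120.3, 119, 153, 157 and 157 CPM in Sham. Sham replicates 23 and 24 were the lowest of the Sham libraries and still lay above every Px library. Px relative to Sham, the log2 fold change was -0.92 ± 0.12 (SE, edgeR adjusted p = 4.74e-06). Pfkp, the platelet-type subunit, had 12.4 CPM in the lowest, 18.3 in the median and 30.8 in the highest Px library, and 8.94, 9.05, 9.97, 12.7 and 11.3 CPM in Sham. The lowest Px library lay just below the highest Sham library, and all 10 Px libraries lay above the Sham mean. For Pfkp the log2 fold change was 0.88 ± 0.18 (SE, edgeR adjusted p = 4.29e-04), but 0.28 (adjusted p = 0.376) under library totals. Pfkl, the liver-type subunit, was at 61.2 ± 12 CPM in Px and 63.3 ± 17.9 CPM in Sham (SD, n = 10 and 5) and did not pass. Gpi, glucose-6-phosphate isomerase, Aldoa, the widely expressed aldolase, and Aldoc, the brain form, had log2 fold changes of 0.27 ± 0.13, 0.16 ± 0.14 and 0.47 ± 0.25 (SE) and did not pass either.

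A share within an isozyme family does not depend on how libraries are scaled. For 11 families, counts per kilobase of exon were expressed as a percentage of the family in each library, and 24 shares were compared between the groups by exact two-sided permutation tests of the group labels, for which the smallest possible p is 3.33e-04. After adjustment over the 24 shares 14 passed, and 9 shares did not overlap. Among all genes tested 64.7% passed in edgeR and 37.2% did not overlap. Shares of a family are bound to each other, so those of Pfkfb2 and Pfkfb3, for example, are near mirror images. Shares within other groups of genes were not tested, so no conclusion is drawn from these counts. Pfkm made up 45.2 ± 6.28% of phosphofructokinase in Px and 63.7 ± 3.31% in Sham (SD, n = 10 and 5, adjusted exact permutation p = 0.002). Pfkp made up 15.2 ± 3.88% in Px and 6.17 ± 0.422% in Sham (adjusted exact permutation p = 0.002), and Pfkl 39.6 ± 4.45% in Px and 30.2 ± 3.42% in Sham (adjusted exact permutation p = 0.0107). The Px and Sham shares of Pfkm and of Pfkp did not overlap. Lower-glucose Px replicate 8 had the lowest Pfkm share (29.4%) and the highest Pfkp share (24%). Without it the differences of Px minus Sham were -16.7 and 8.09 percentage points, against -18.5 and 9.06 with it.

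The Pfkfb family was counted from Pfkfb1, Pfkfb2 and Pfkfb3, without Pfkfb4. The share of Pfkfb3 in it was 5.73% in the lowest, 11% in the median and 30.9% in the highest Px library. In Sham this share was 0.689, 0.849, 0.705, 0.968 and 0.913%. Pfkfb2 made up 83.8 ± 9.43% in Px and 98.8 ± 0.219% in Sham (SD, n = 10 and 5). Both shares separated the groups without overlap (adjusted exact permutation p = 0.016 for each). Pfkfb2 remained the larger share in every library.

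**Figure D3:**
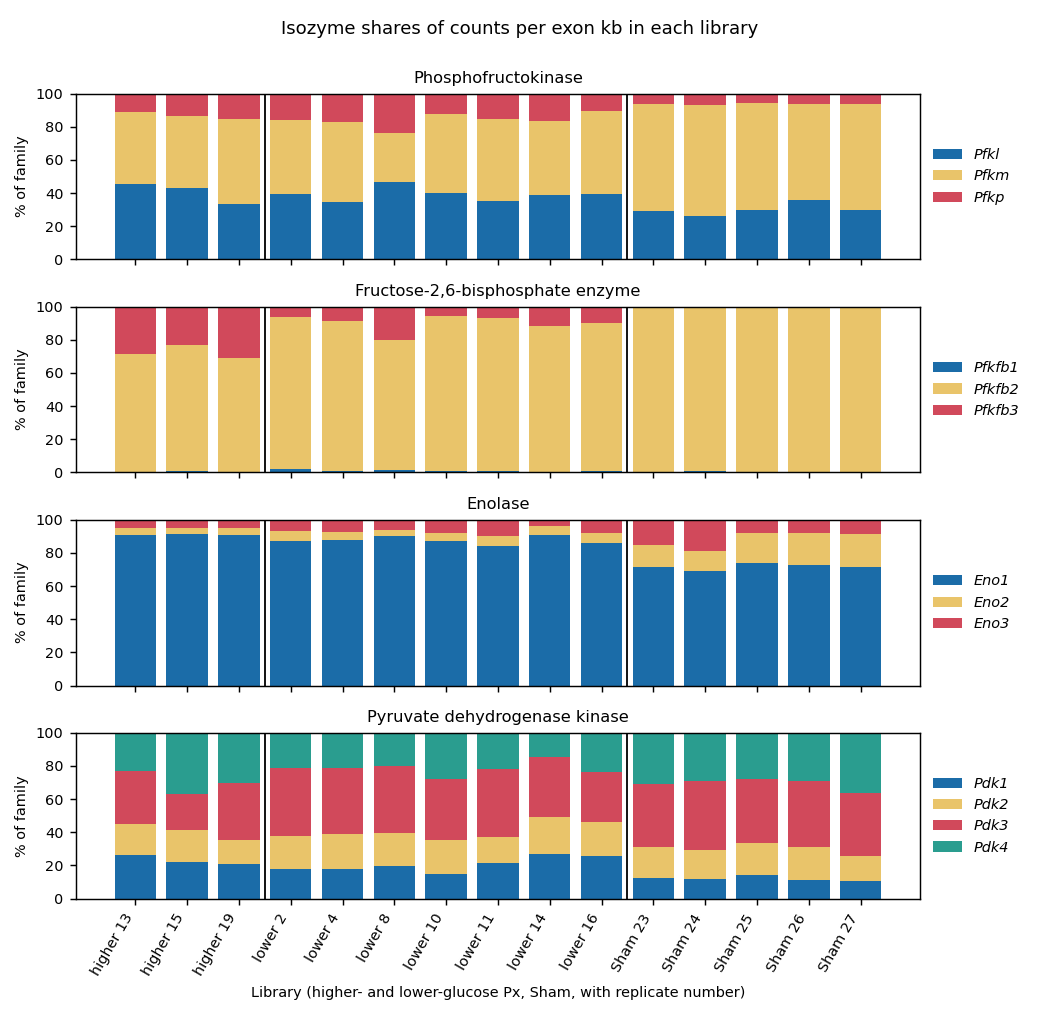
Bars are the 15 libraries (x axis: higher-glucose Px, lower-glucose Px, Sham, with replicate numbers), and the coloured parts are each isozyme's percentage of its family's counts per exon kilobase (y axis). Pfkp, Pfkfb3, Eno1 and Pdk1 take larger parts in Px than in Sham bars. The Pfkfb family is shown without Pfkfb4.

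Among the 7 lower glycolysis genes, Eno1 and Pgk1 were higher in Px, Eno2 and Pkm were lower, and Tpi1, Gapdh and Pgam1 did not pass. Eno2, the enolase of neurons and neuroendocrine cells, had 4.32 CPM in the lowest, 5.43 in the median and 6.73 in the highest Px library. In Sham it had 9.52, 8.54, 16.2, 19.2 and 14.2 CPM. All Px libraries lay below all Sham libraries, and among Sham the replicates 23 and 24 were lowest. On the log2 scale the fold change was -1.33 ± 0.16 (SE, edgeR adjusted p = 2.95e-06).

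Eno1, the widely expressed enolase, had 58.8 CPM in the lowest, 81.2 in the median and 129.9 in the highest Px library, and 42.8, 41.1, 55.6, 62.5 and 42.6 CPM in Sham. The highest Px library was replicate 8, and 1 Px library lay below the highest Sham library. This gave a log2 fold change of 0.82 ± 0.19 (SE, edgeR adjusted p = 0.00118), but 0.18 (adjusted p = 0.507) under library totals. As a share of enolase, Eno1 rose to 88.6 ± 2.45% in Px, against 71.7 ± 1.74% in Sham, and Eno2 fell to 4.9 ± 1.06% in Px, against 16.5 ± 3.52% in Sham (SD, n = 10 and 5, adjusted exact permutation p = 0.002 for each). Neither share overlapped between the groups. Eno3, the muscle form, made up 6.51 ± 1.77% in Px and 11.7 ± 4.92% in Sham (adjusted exact permutation p = 0.016), with 15.2 and 18.7% in Sham replicates 23 and 24 and 8.14 to 8.41% in the other Sham libraries.

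Pgk1, phosphoglycerate kinase, had 98.9 CPM in the lowest, 113 in the median and 218 in the highest Px library, and 65.1, 77.5, 97.7, 94.8 and 86.4 CPM in Sham. The groups did not overlap, and replicate 8 was far above the other Px libraries. As a log2 fold change this was 0.56 ± 0.16 (SE, edgeR adjusted p = 0.00575), 0.44 without replicate 8, and -0.03 (adjusted p = 0.928) under library totals. Pkm, pyruvate kinase M, had 233 CPM in the lowest, 288 in the median and 475 in the highest Px library, and 366, 352, 485, 546 and 456 CPM in Sham. The groups overlapped through the 3 higher-glucose rats. For Pkm the log2 fold change was -0.46 ± 0.16 (SE, edgeR adjusted p = 0.0168), 0.13 with the granule genes as the scale, and its adjusted p was 0.0611 without Sham replicate 26. Pkm held 92.5 ± 1.55% of pyruvate kinase in Px and 92.0 ± 2.77% in Sham, beside Pklr, and this share did not pass. Gapdh, at 15.1 ± 4.44 CPM per exon kilobase in Px and 11 ± 4.41 in Sham, stood well below Pgk1 at 73.5 ± 20 in Px and 49.8 ± 7.87 in Sham. Gapdh and Tpi1 have near-identical processed copies that can take their reads, so their levels are uncertain. Whether reads were lost in this way, for these or other members, was not tested.

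Of the 11 pyruvate entry genes Pdk1, Pdha1 and Mpc1 were higher in Px, Pc was lower and 7 did not pass. Pc, which makes oxaloacetate from pyruvate, had 42.1 CPM in the lowest, 52.1 in the median and 73.4 in the highest Px library. In Sham it had 101, 90.8, 136, 140 and 131 CPM. Every Px library lay below every Sham library. Px relative to Sham, the log2 fold change was -1.15 ± 0.13 (SE, edgeR adjusted p = 1.12e-06).

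Pdk1, a kinase that inhibits pyruvate dehydrogenase, had 10.3 CPM in the lowest, 15.6 in the median and 20.9 in the highest Px library, and 7.46, 6.62, 9.54, 7.34 and 7.11 CPM in Sham. The groups did not overlap, and Sham replicate 25, the Sham library with the most acinar RNA, was the highest Sham library. On the log2 scale the fold change was 1.0 ± 0.19 (SE, edgeR adjusted p = 2.27e-04), 0.27 (adjusted p = 0.152) under library totals, and 0.05 (adjusted p = 0.919) with the acinar score as a covariate. Pdk1 made up 21.4 ± 4.03% of the kinases in Px and 12.1 ± 1.37% in Sham, without overlap (SD, n = 10 and 5, adjusted exact permutation p = 0.0032). The shares of Pdk2, Pdk3 and Pdk4 did not pass; that of Pdk3 was the largest in both groups, at 35.3 ± 6.13% in Px and 39.2 ± 1.45% in Sham.

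The subunits of pyruvate dehydrogenase did not share 1 direction. Pdha1, the E1 alpha subunit, had 33.1 CPM in the lowest, 41.6 in the median and 49.9 in the highest Px library, and 27.9, 28.2, 35.7, 28.1 and 30.8 CPM in Sham. The highest Sham library, replicate 25, lay above 1 Px library and below the other 9. This gave a log2 fold change of 0.46 ± 0.10 (SE, edgeR adjusted p = 5.16e-04), -0.19 under library totals, and 0.12 (adjusted p = 0.616) with the acinar score as a covariate. Pdha1 is uncertain because 251 bases of its exons (8.92%) overlap a gene on the opposite strand, and no source used here says whether counting used strand. Pdhb (E1 beta), Dlat (E2) and Dld (E3) had log2 fold changes of -0.09 ± 0.15, -0.03 ± 0.10 and -0.02 ± 0.09 (SE) and did not pass. Mpc1, which with Mpc2 forms the mitochondrial pyruvate carrier, had 16.6 CPM in the lowest, 26.1 in the median and 34.5 in the highest Px library. In Sham it had 18.2, 20.8, 19.3, 19.3 and 18.9 CPM. The Px libraries spread to both sides of the narrow Sham range. For Mpc1 the log2 fold change was 0.42 ± 0.15 (SE, edgeR adjusted p = 0.024), and -0.26 under library totals; the adjusted p reached 0.0557 when 1 Sham library, replicate 23 or 27, was left out.

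Of the 5 shuttle genes among the members 4 were lower in Px and none was higher. Of all genes tested 30.2% were lower and 34.5% higher. Other shuttle genes went both ways. Gpd1, the cytosolic glycerol-3-phosphate dehydrogenase, and the carrier Slc25a13 were higher (log2 fold changes 1.07 and 0.64, edgeR adjusted p = 0.018 and 0.00187). The carriers Slc25a11 and Slc25a12 were lower (-0.25 and -0.51, edgeR adjusted p = 0.018 and 1.77e-05). None of these other genes kept its direction and call under all 3 scalings. Gpd2 had 29.4 CPM in the lowest, 34.7 in the median and 36.2 in the highest Px library, and 67.8, 67.3, 68.7, 62.3 and 79.4 CPM in Sham. Its Px libraries lay close together and far below every Sham library. As a log2 fold change this was -1.05 ± 0.07 (SE, edgeR adjusted p = 1.28e-08), the smallest adjusted p among the 43 members, and it stayed between -1.69 and -0.47 under library totals and granule genes.

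Got1, the cytosolic aspartate aminotransferase, had 44.0 CPM in the lowest, 51.7 in the median and 68.2 in the highest Px library, and 61.9, 64.7, 77.2, 74.9 and 69.3 CPM in Sham. The groups overlapped through 3 Px libraries, higher-glucose replicates 13 and 19 and lower-glucose replicate 11. Px relative to Sham, the log2 fold change was -0.34 ± 0.10 (SE, edgeR adjusted p = 0.00855), and 0.24 with the granule genes as the scale. Me1, the cytosolic malic enzyme that makes NADPH, had 79.4 CPM in the lowest, 122 in the median and 177 in the highest Px library, and 137, 134, 183, 170 and 208 CPM in Sham. Of the Px libraries, higher-glucose replicates 13 and 19 reached into the Sham range. For Me1 the log2 fold change was -0.46 ± 0.15 (SE, edgeR adjusted p = 0.0146), 0.11 with the granule genes as the scale, and its adjusted p was 0.0596 without Sham replicate 27. Mdh1, the cytosolic malate dehydrogenase, was also lower (-0.36 ± 0.14, SE, edgeR adjusted p = 0.0274), and 0.22 with the granule genes, and its adjusted p was up to 0.0778 without higher-glucose replicate 15 or Sham replicate 26 or 27. Per exon kilobase Mdh1 had the highest level of all members, at 589 ± 103 CPM in Px and 757 ± 102 CPM in Sham (SD, n = 10 and 5). Got2, the mitochondrial aspartate aminotransferase, was at 70.8 ± 7.59 CPM in Px and 74.9 ± 16.2 CPM in Sham and did not pass. As shares of their families, Me1 fell to 74.3 ± 3.91% in Px, against 79.9 ± 2.37% in Sham (adjusted exact permutation p = 0.016), and Got1 fell to 47.7 ± 3.43% in Px, against 52.7 ± 3.64% in Sham (adjusted exact permutation p = 0.044). The share of Mdh1 in malate dehydrogenase, at 95.2 ± 1.26% in Px and 96.3 ± 0.551% in Sham, did not pass. Leaving out 1 library at a time ended the call of the Me1 share in 2 of 15 repeats and that of the Got1 share in 10 of 15.

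Of the 11 TCA cycle genes 4 were higher in Px (Cs, Idh3b, Sucla2 and Idh1), 7 did not pass and none was lower. Cs, citrate synthase, had 70.6 CPM in the lowest, 75.3 in the median and 93.0 in the highest Px library. In Sham it had 46.3, 55.4, 64.0, 62.2 and 55.3 CPM. The groups did not overlap, and replicate 8 was the highest Px library. On the log2 scale the fold change was 0.44 ± 0.08 (SE, edgeR adjusted p = 1.99e-04), 0.41 without replicate 8, and -0.18 under library totals.

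Idh3b, a subunit of the NAD-dependent isocitrate dehydrogenase, had 28.8 CPM in the lowest, 35.6 in the median and 43.6 in the highest Px library, and 25.3, 29.4, 31.7, 27.6 and 25.1 CPM in Sham. All but 1 of the Px libraries lay above the Sham range. This gave a log2 fold change of 0.37 ± 0.09 (SE, edgeR adjusted p = 0.00178), and -0.27 under library totals. The other subunits, Idh3a and Idh3g, had log2 fold changes of -0.00 ± 0.08 and -0.10 ± 0.08 (SE) and did not pass. Sucla2, the ADP-forming subunit of succinyl-CoA ligase, had 56.0 CPM in the lowest, 62.0 in the median and 94.8 in the highest Px library, and 47.4, 53.6, 56.8, 55.0 and 50.1 CPM in Sham. The ranges touched at 1 Px library, and the 3 highest Px libraries were the higher-glucose rats. For Sucla2 the log2 fold change was 0.37 ± 0.13 (SE, edgeR adjusted p = 0.0152), -0.30 under library totals, and -0.03 (adjusted p = 0.926) with the acinar score. Idh1, the cytosolic NADP-dependent enzyme, had a log2 fold change of 0.21 ± 0.09 (SE, edgeR adjusted p = 0.0486), -0.43 under library totals, and lost the call in 10 of 15 repeats with 1 library left out. The share of Idh1 beside Idh2, at 18.4 ± 3.31% in Px and 18 ± 2.55% in Sham, and that of Sucla2 beside Suclg2, at 55.5 ± 3.8% in Px and 52.8 ± 1.3% in Sham (SD, n = 10 and 5), did not pass. The authors' deposited table had 10 members higher and 9 lower at an adjusted p under 0.05, and Idh1 was the only member whose call differed. Idh2, Suclg1, Suclg2, Fh (fumarase) and Mdh2 had log2 fold changes of 0.17, 0.05, 0.20, 0.25 and 0.01 and did not pass.

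**Figure D4:**
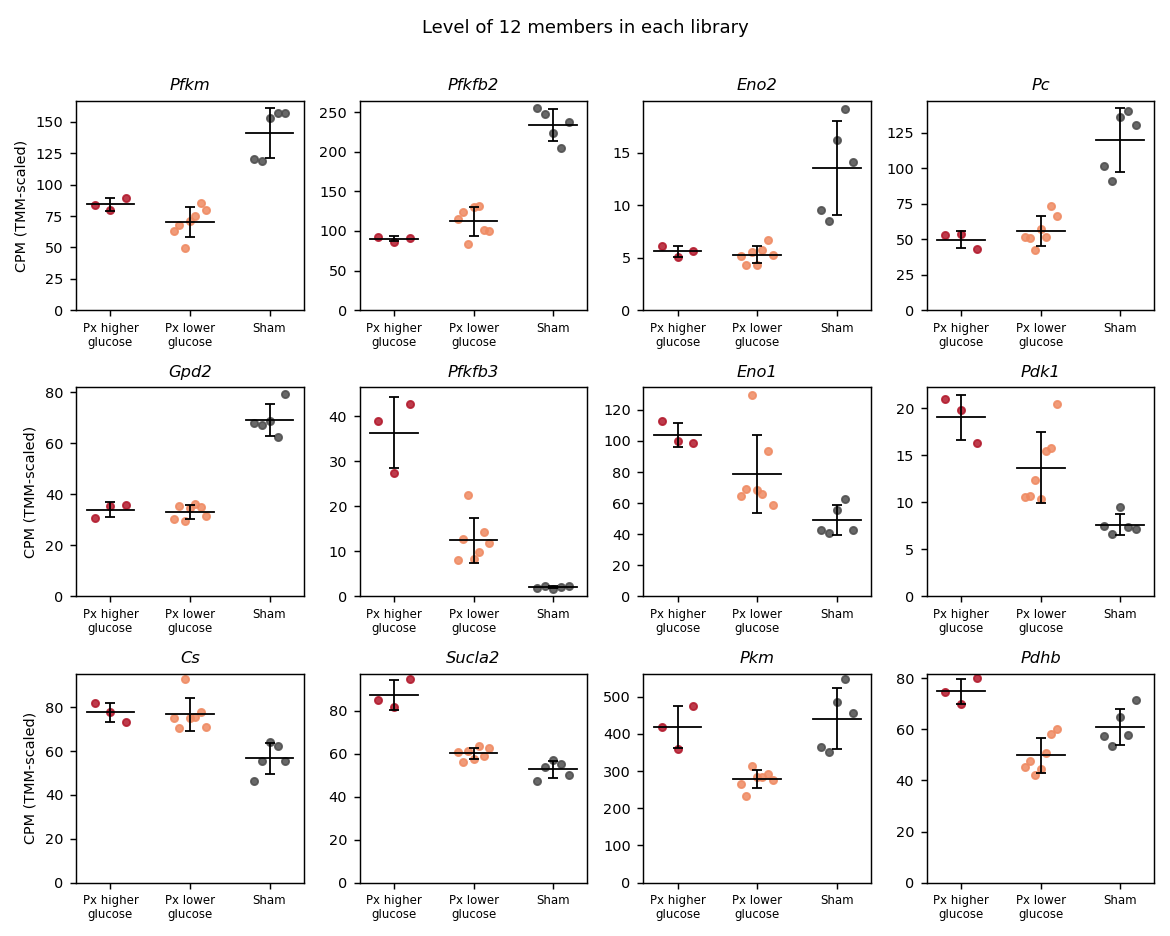
Points are libraries of higher-glucose Px, lower-glucose Px and Sham (x axis, n = 3, 7 and 5), with the TMM-scaled CPM of 12 members on the y axis, lines at the mean and bars of 1 SD. Pfkm, Pfkfb2, Eno2, Pc and Gpd2 lie lower in every Px library than in every Sham library, and Pfkfb3, Sucla2, Pkm and Pdhb separate the 3 higher-glucose from the 7 lower-glucose Px libraries.

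Within Px, the higher-glucose rats (n = 3) were set against the lower-glucose rats (n = 7) in a fit of all 3 groups. This comparison and that of Px with Sham share the Px libraries. Pfkfb3, Sucla2, Pdhb, Pkm and Pdk4 were higher in the higher-glucose rats and no member was lower, where 3.29% of all 15661 genes were higher, 1.59% lower and 4.88% either. In 33 of 43 members the log2 fold change was above 0. The members' median was 0.18, against -0.02 for all genes. Under library totals the members' median was -0.31 and 0 members passed, against 46 higher and 96 lower genes and 6126 genes at an unadjusted p under 0.05 in edgeR; with the granule genes as the scale only Pfkfb3 passed. Among the marker lists of this contrast, 4 of 12 fibroblast and stellate markers were lower in the higher-glucose rats (Col1a1 by a log2 fold change of -2.17, edgeR adjusted p = 0.0293), 3 of 8 granule genes and 1 of 6 alpha, delta and PP cell markers (Sst) were higher, and 0 of 22 acinar, 0 of 12 macrophage and 0 of 9 beta cell markers passed. The part of these cell types in the members' differences was not tested.

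Pfkfb3 had 38.9, 27.5 and 42.6 CPM in the higher-glucose rats and 8.04 CPM in the lowest, 11.8 in the median and 22.4 in the highest lower-glucose rat. The groups did not overlap, and the highest lower-glucose library was replicate 8. The log2 fold change was 1.54 ± 0.24 (SE, edgeR adjusted p = 0.00162), and 1.03 (adjusted p = 0.0774) under library totals. Sucla2 had 85.1, 81.8 and 94.8 CPM in the higher-glucose rats and 56.0 CPM in the lowest, 60.6 in the median and 63.3 in the highest lower-glucose rat. The lower-glucose libraries lay in a narrow band well below all 3 higher-glucose libraries. The log2 fold change of Sucla2 was 0.54 ± 0.08 (SE, edgeR adjusted p = 9.09e-04), and 0.05 under library totals.

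Pdhb had 74.6, 70.1 and 80.0 CPM in the higher-glucose rats and 42.0 CPM in the lowest, 47.5 in the median and 60.3 in the highest lower-glucose rat. Pkm had 420, 360 and 475 CPM in the higher-glucose rats and 233 CPM in the lowest, 284 in the median and 314 in the highest lower-glucose rat. Neither gene's groups overlapped. The log2 fold changes were 0.59 ± 0.12 for Pdhb (SE, edgeR adjusted p = 0.00861) and 0.59 ± 0.14 for Pkm (SE, edgeR adjusted p = 0.022), and 0.13 and 0.10 under library totals. Without higher-glucose replicate 19 neither call passed (edgeR adjusted p = 0.0523 for Pdhb and 0.12 for Pkm), and without higher-glucose replicate 13 that of Pkm did not (adjusted p = 0.0907). Pdk4, a pyruvate dehydrogenase kinase that is induced in fasting, had 18.2, 32.7 and 23.5 CPM in the higher-glucose rats and 8.40 CPM in the lowest, 12.6 in the median and 19.4 in the highest lower-glucose rat. Its groups overlapped. The log2 fold change of Pdk4 was 0.80 ± 0.22 (SE, edgeR adjusted p = 0.0437), and the call ended in 8 of 15 repeats with 1 library left out. These were higher-glucose replicates 15 and 19, lower-glucose replicates 2, 4 and 8, and Sham replicates 23, 25 and 26, with the highest adjusted p without replicate 15 (0.55, edgeR adjusted p = 0.245). Mpc2 and Dlat also did not overlap between the groups and did not pass. In all, 6 of 43 members did not overlap between higher- and lower-glucose Px. The share of all genes that do the same was not counted, so no conclusion is drawn from this number.

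None of the 24 isozyme shares had an adjusted p under 0.05 between higher- and lower-glucose Px, where the smallest p that the exact test can give is 0.00833. The Pfkfb3 share was 28.6, 23.2 and 30.9% in the higher-glucose rats and 5.73% in the lowest, 8.83% in the median and 20.2% in the highest lower-glucose rat. It did not overlap between the groups and had that smallest p (adjusted exact permutation p = 0.05). The Eno1 share did not overlap either, at 90.9 ± 0.284% in higher- and 87.6 ± 2.26% in lower-glucose Px (SD, n = 3 and 7, adjusted exact permutation p = 0.143).

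Across the 7 lower-glucose Px rats (glucose 104 to 211) no member passed the test for a slope on log2 glucose. In edgeR 0 of 13752 genes passed (0%), 1277 had an unadjusted p under 0.05, DESeq2 called 91 genes upward and 30 downward with 0 members among them, and limma voom called 0. Pdk3 and Mpc1 were the 2 of 42 tested members with an unadjusted p under 0.05. Their slopes per unit of log2 glucose were 0.46 ± 0.14 (SE, edgeR adjusted p = 0.433) and -0.77 ± 0.29 (SE, edgeR adjusted p = 0.482). Replicates 14 and 16, the rats of lowest glucose in this group (104 and 119), also had its largest acinar shares of counts. These were 43.2 and 48.5%, against 20.1 to 30.5% in the others. In these rats low glucose and high acinar RNA cannot be told apart.

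Of 37 other genes of these pathways 34 were tested, and in Px against Sham 12 were higher, 7 lower and 15 did not pass (edgeR, adjusted p under 0.05). The share called was 55.9%, below the 64.7% of all genes tested. Under library totals 4 were higher and 19 lower, and with the granule genes as the scale 24 were higher and 2 lower. Ogdhl, an oxoglutarate dehydrogenase E1 form, had 30.3 CPM in the lowest, 34.9 in the median and 40.6 in the highest Px library, and 88.0, 75.8, 94.3, 99.9 and 92.4 CPM in Sham. The groups did not overlap, with a log2 fold change of -1.36 ± 0.08 (SE, edgeR adjusted p = 3.59e-09). Acly, which splits citrate in the cytosol, was also lower, by a log2 fold change of -1.06 ± 0.11 (SE, edgeR adjusted p = 3.75e-07). So was Slc25a12, a mitochondrial aspartate and glutamate carrier, by -0.51 ± 0.07 (SE, edgeR adjusted p = 1.77e-05). Slc25a13, another such carrier, was higher, by 0.64 ± 0.16 (SE, edgeR adjusted p = 0.00187), but -0.04 (adjusted p = 0.865) under library totals. Fbp1, the gluconeogenic fructose bisphosphatase, Pdhx, a pyruvate dehydrogenase subunit, and Sdha, a succinate dehydrogenase subunit, were higher, by 4.15 ± 0.61, 0.68 ± 0.10 and 0.57 ± 0.09 (SE, edgeR adjusted p = 1.81e-05, 1.85e-05 and 2.76e-05). Ogdhl, Acly and Fbp1 kept these directions and calls under library totals and granule genes, whereas Sdha was -0.09 and Pdhx 0.04 under library totals and Slc25a12 was 0.08 with the granule genes, none of which passed. With the acinar score as a covariate Ogdhl, Acly and Pdhx kept their calls, and Fbp1 (2.09, edgeR adjusted p = 0.0896), Sdha (0.29, adjusted p = 0.182) and Slc25a12 (-0.29, adjusted p = 0.13) did not pass. Px and Sham libraries did not overlap for any of the 6 genes chosen by smallest p (Ogdhl, Acly, Slc25a12, Fbp1, Pdhx and Sdha). Of all 36 other pathway genes in the count table, 5 lay above, 4 below and 27 overlapped. Among all genes tested 37.2% did not overlap.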

How the data were processed

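Isolated rat islets were sequenced as poly(A) RNA, with a directional library kit per the labels' protocols. The deposited count table gives raw read counts of 28914 genes beside their positions and exon lengths, a featureCounts layout by its header. FastQC, Subread, featureCounts and limma were used by the authors, per the submitters' processing notes. No source used here gives versions, genome build, annotation or strand setting. The deposited comparison table holds log2 fold changes, a fold change as a ratio, and p-values with and without adjustment, per the file headers, and was used only where it is named. Labels give no batch. The groups are the surgery and, within Px, the labelled glucose split at 300. Each library was taken as a separate rat; where rats are not stated to be separate, p-values measure the spread between these libraries.

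Genes with low counts were left out by filterByExpr (a minimum count of 10 and a total of 15), libraries were scaled by TMM, and each gene was tested two-sided by the quasi-likelihood method of edgeR 4.0.16 (R 4.3.3), with Benjamini-Hochberg adjustment over all genes tested and a threshold of 0.05. Px and Sham were compared in a fit of 2 groups, and higher- against lower-glucose Px was a contrast in a fit of 3 groups. The fits were tested on simulated counts. Alternatives used DESeq2 1.42.0, limma 3.58.1, other scalings and filters, marker scores (mean log2 CPM, prior count 2) as covariates, and leaving out each library; 1 alternative, without Sham replicate 25 and lower-glucose Px replicate 16, was added after seeing the data. No pair of libraries of the same group agreed within sampling noise, and pairs across groups were not compared. Values per library are given in each role for up to 3 rising and 3 falling members by smallest p, and for every member called within Px. Other pathway genes were named by the same rule, and Gpd1, Slc25a11 and Slc25a13 were added as further shuttle genes. The members and lists were chosen with earlier results of these data known. Totals of 12.2 to 33.4 M counts set the depth. Promoter sequences are from RefSeq (GRCr8). Isozyme shares of 1 family were tested and are counted in the totals, and are not reported here.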

Additional observations from a re-analysis of the deposited data

Results flagged for a closer look

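In 16 of 134 groups of values 1 library lay far from the rest of its group (Dixon's test at 95%). For independent groups chance gives about 1 in 20. These groups share genes and libraries, and shares of a family are bound to each other, so the 16 cannot be set against that rate. Lower-glucose Px replicate 8, the library with the highest macrophage marker share (0.447%), accounted for 9 of the 16. It was the highest of its group for Pgk1 (217.6 CPM, others 98.89 to 131.6), Cs (92.98 CPM, others 70.6 to 77.69), Idh3a (37.9 CPM, others 29.15 to 32.55) and Tpi1 (28.16 CPM, others 11.54 to 17.95). Within isozyme families it had the lowest share of Pfkm (29.4%), Pfkfb2 (78.14%) and Me1 (64.3%), and the highest of Pfkfb3 (20.16%) and Me2 (31.22%). Whether its macrophage share has a part in these values was not tested.

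In the other lower-glucose Px libraries, replicate 11 was highest for Got1 (66.23 CPM, others 43.99 to 53.19) and had the lowest Pdk2 share (15.72%, others 20.19 to 22.37%). Replicate 14 was lowest for Idh3g (41.64 CPM, others 48.14 to 51.39), and replicate 16 was highest for Suclg1 (80.76 CPM, others 62.65 to 68.92). In Sham, replicate 26 was highest for Gapdh (18.67 CPM, others 7.684 to 10.21), replicate 25 was highest for Pdk1 (9.536 CPM, others 6.623 to 7.457), and replicate 24 had the lowest Pfkfb2 share (98.41%, others 98.85 to 98.94%).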

How the results depend on the processing

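No paired analysis was possible because Px and Sham libraries, and the 2 Px groups, share no replicate numbers. For Px against Sham, 11 members were higher and 9 lower with TMM. Library totals gave 1 and 24, granule genes 33 and 5, the acinar covariate 2 and 10, the macrophage covariate 0 and 0 (edgeR, 2009 genes at an unadjusted p under 0.05), and leaving out 1 library 9 to 13 and 7 to 9. DESeq2 size factors, DESeq2, limma voom and no filter gave 10 and 9, a filter at 1 CPM 12 and 9, and leaving out Sham replicate 25 with Px replicate 16 gave 10 and 7. The sign of the log2 fold change turned in 20 of 43 members under library totals, 14 with granule genes, 9 with the acinar and 22 with the macrophage covariate. Those called in either fit are named. Under library totals they were Pgk1 (-0.028), Mpc1 (-0.26), Mpc2 (-0.53), Pdha1 (-0.19), Cs (-0.18), Idh1 (-0.43), Idh2 (-0.47), Idh3b (-0.27), Sucla2 (-0.30), Suclg1 (-0.59), Suclg2 (-0.48) and Mdh2 (-0.65). With granule genes they were Pfkl (0.58), Pgam1 (0.48), Pkm (0.13), Pdhb (0.47), Dlat (0.56), Dld (0.56), Pdk3 (0.58), Mdh1 (0.22), Me1 (0.11), Got1 (0.24), Got2 (0.54), Idh3a (0.60) and Idh3g (0.48). With the acinar covariate they were Mpc2 (-0.74) and Sucla2 (-0.035). With the macrophage covariate they were Pfkp (-0.99), Pgk1 (-1.34), Eno1 (-0.84), Mpc1 (-0.77), Mdh1 (0.27), Me1 (0.51), Cs (-0.33) and Idh3b (-0.32). Both scalings move all genes by construction; the cause of the covariates' effect was not tested. Of the 20 called members 15 passed whichever library was left out, and Pkm, Mpc1, Mdh1, Me1 and Idh1 did not. Higher- against lower-glucose Px gave 5 higher members with TMM, 0 under library totals, 1 with granule genes, 6 higher and 1 lower with the macrophage covariate, and 2 to 7 when 1 library was left out (2 without higher-glucose replicate 19, 7 without lower-glucose replicate 14). No member passed for the glucose slope under any alternative. Isozyme shares that passed between Px and Sham numbered 9 to 14 when 1 library was left out, with 9 without Sham replicate 25, and 14 from raw counts. Smaller Sham libraries limit the precision of low genes such as Pfkfb1.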

Other observations

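Of 9 genes that handle glucose entry or lactate, 7 were higher and 2 lower in Px against Sham (edgeR, adjusted p under 0.05). Of all genes tested 34.5% were higher and 30.2% lower. Hk1, a hexokinase of high glucose affinity, had 41.8 CPM in the lowest, 48.9 in the median and 68.1 in the highest Px library, and 8.04, 12, 13.7, 12.8 and 10.3 CPM in Sham (log2 fold change 2.18 ± 0.15, SE, edgeR adjusted p = 1.08e-08). Slc16a1, a monocarboxylate transporter that beta cells normally hold low, was higher, with a log2 fold change of 2.84 ± 0.21 (SE, edgeR adjusted p = 2.59e-08). Both passed in the same direction under library totals, granule genes and the acinar covariate. Px and Sham libraries did not overlap for either gene. Of the 9 genes 6 lay above, 2 below and 1 overlapped, where 37.2% of all genes tested did not overlap.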
